A study of Mus musculus with 4 samples.

Results

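Regions listed for FoxO1 signal that lay deep inside genes were examined in the mouse heart. The hearts were normal or made hypertrophic by drug or by pressure. A region was taken where the deposited table placed it inside a gene, listed no CpG island in it, and put the nearest start site of an assigned gene more than 10000 bp away. Of 16126 merged regions, 2215 (13.7%) met this rule, and they are called distal gene body regions here. They lay in 1107 host genes, a median of 47908 bp from the nearest assigned start (range 10028 to 1360836), with a median length of 325 bp. The rule used position and CpG islands and no signal value.

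All animals were wild type male C57BL/6 mice aged 12 weeks, and all hearts were taken after 7 days. The Veh/Sham group received daily subcutaneous vehicle and a sham operation. The Iso group received subcutaneous isoproterenol at 3 mg/kg per day, an agonist of beta-adrenergic receptors. The TAC group had transverse aortic constriction, which raises the pressure against which the left ventricle pumps. Each group was 1 pool of 3 hearts and gave 1 library by chromatin immunoprecipitation and sequencing (ChIP-seq) with an antibody to FoxO1, with a spike-in of Drosophila chromatin. There was therefore no spread between replicates and no test, and each difference below is a difference between single libraries. The input library was not analysed here.

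FoxO1 is a forkhead transcription factor. Insulin and growth factor signals activate the kinase Akt, which phosphorylates FoxO1 and holds it in the cytoplasm, and stress or a lack of growth factor lets it enter the nucleus. There it acts on genes of metabolism, atrophy, cell survival and antioxidant defence, in heart muscle as in other tissues. Sites far from the start of a gene often lie in enhancers or at alternative promoters, and such elements usually lack CpG islands. The whole heart holds cardiomyocytes, endothelial cells, fibroblasts and other cells, so a higher value in more cells and a higher value per cell cannot be told apart in these pools.

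Values are the authors' mean signal, which is the mean fragment coverage over a region, and their peak depth, which is the highest number of overlapping fragments in it. The sources used here do not say how the libraries were scaled to each other. A log2 ratio is the log2 of the ratio of mean signals with 1 added to each. It is given as it stands and, where it matters, relative to the median of all 16126 regions, which was 0.30 (Iso against Veh/Sham), 0.59 (TAC against Veh/Sham) and 0.29 (TAC against Iso). Regions are counted as higher or lower from 1.5-fold, a rule of size. Intervals of single peak ratios are exact 95% counting intervals, which take in counting error only and were computed from the peak depths.

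Of the 2127 distal gene body regions on chromosomes for which RefSeq start windows were at hand, 80 (3.76%, 95% Wilson interval 3.03 to 4.66) overlapped a window of 250 bases before to 50 after an annotated start. In 50 of them the window was that of a start of the host gene itself, a start the deposited table did not use. For regions at CpG island promoters the share was 69.1%. Only the sequence of such windows could be read, and the overlap with a distal region was as small as 4 bases, in Il1r1. The stretches below are the 250 bases before such a start in 5 of the 80 regions, 5′ to 3′ on the strand of the gene. They are from RefSeq, build GRCm38.p6, whose coordinates are those of mm10. Il16 is shown because its region had the highest TAC signal, Sbno2 because it had the next highest mean signal among regions at a start of their host gene, Erg because it is an endothelial transcription factor with 6 distal regions, and Rcan1 and Pde4b because they belong to the calcineurin and cAMP pathways of the heart. Capitals mark CTTATCT (the GATA motif AGATAAG read on the other strand) and CTTCCTG (the ETS motif CAGGAAG read on the other strand) in Erg, and TGACGTCA (the cAMP response element) in Rcan1. The windows lie at chr7:83655496-83655745 on the minus strand for Il16, chr10:80075440-80075689 on the minus strand for Sbno2, chr16:95459349-95459598 on the minus strand for Erg, chr16:92400079-92400328 on the minus strand for Rcan1 and chr4:102569810-102570059 on the plus strand for Pde4b.
Il16: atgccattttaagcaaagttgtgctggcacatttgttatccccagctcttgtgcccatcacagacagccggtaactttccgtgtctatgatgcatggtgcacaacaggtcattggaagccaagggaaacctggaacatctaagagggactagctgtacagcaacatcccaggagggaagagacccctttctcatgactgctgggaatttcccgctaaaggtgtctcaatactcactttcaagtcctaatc
Sbno2: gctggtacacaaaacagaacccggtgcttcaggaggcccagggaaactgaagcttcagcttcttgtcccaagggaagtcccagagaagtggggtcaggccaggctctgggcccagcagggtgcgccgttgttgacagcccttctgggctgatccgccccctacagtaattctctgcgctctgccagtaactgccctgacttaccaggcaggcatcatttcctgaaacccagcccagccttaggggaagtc
Erg: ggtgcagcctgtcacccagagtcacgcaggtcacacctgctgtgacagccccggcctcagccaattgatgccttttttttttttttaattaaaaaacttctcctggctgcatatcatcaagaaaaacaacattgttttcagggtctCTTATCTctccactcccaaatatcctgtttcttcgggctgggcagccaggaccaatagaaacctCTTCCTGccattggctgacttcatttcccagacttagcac
Rcan1: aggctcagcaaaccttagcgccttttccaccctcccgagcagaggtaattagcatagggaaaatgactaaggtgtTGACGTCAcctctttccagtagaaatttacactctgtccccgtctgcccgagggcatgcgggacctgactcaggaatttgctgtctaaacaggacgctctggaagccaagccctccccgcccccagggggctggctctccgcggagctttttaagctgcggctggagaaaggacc
Pde4b: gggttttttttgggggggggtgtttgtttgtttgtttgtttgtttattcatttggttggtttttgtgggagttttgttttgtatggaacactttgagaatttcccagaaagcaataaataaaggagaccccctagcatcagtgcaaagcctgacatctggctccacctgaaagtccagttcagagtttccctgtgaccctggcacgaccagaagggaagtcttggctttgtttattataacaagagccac

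Forkhead factors bind the core GTAAACA, which reads TGTTTAC on the other strand. It was found on either strand in 5 of the 86 distinct windows at distal gene body regions (5.8%, 95% Wilson interval 2.51 to 12.9), against 3.6% of all 32817 windows of this length. The longer element GTAAACAA was in 1.2% of each set, and its matches are among those of the core. Variants of the core with other letters were not searched, so a stretch printed without capitals may hold some. In 2 of the 5 windows the core lay wholly before the start and inside the distal region, and both are shown, with the core in capitals, because the matches lie inside distal regions. The Spata13 region had mean signals of 9.50 (Veh/Sham), 15.2 (Iso) and 12.2 (TAC) and was called in Iso alone. The Pde4b region had 6.29, 6.71 and 16.4 and was called in none of the 3 libraries. The first lies in Spata13 at chr14:60682702-60682743 and the second in Pde4b at chr4:102569459-102569505, both on the minus strand, before starts of the predicted genes Gm41165 and Gm52667.
Spata13: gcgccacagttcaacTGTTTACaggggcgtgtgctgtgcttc
Pde4b: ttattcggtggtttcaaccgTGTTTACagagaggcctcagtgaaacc

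The ETS motif CAGGAAG was in 26.7% of these windows and in 13.3% of all windows, and in 10.7% of the windows at CpG island promoter regions. The TEAD motif GGAATGT was in 9.3% against 3.8%, AGATAAG in 5.8% against 3.0%, CTAAAAATA (MEF2) in 2.3% against 0.5%, AAGGTCA (bound by nuclear receptors) in 4.7% of both, CACGTG (an E-box) in 3.5% against 7.1%, and TGACGTCA in 2.3% against 1.8%. All were searched on both strands, and the shares at distal regions rest on 86 windows, some of which overlap each other. Their median G and C content was 52.5%, against 52.7% in all windows and 63.7% at CpG island promoters. Windows reach beyond the distal regions they overlap, so a match may lie outside the region. A match describes letters in a window and no binding site.

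Distal gene body regions carried more FoxO1 signal in both hypertrophy libraries than in Veh/Sham, and their Iso signal stood higher against Veh/Sham than that of the regions as a whole. Their median mean signal was 7.35 (Veh/Sham), 11.8 (Iso) and 12.0 (TAC), where all regions had 8.71, 11 and 14.0. The median peak depth was 10, 16 and 16 fragments. Iso was the highest library in 43.4% of distal gene body regions and in 26.5% of all regions, TAC in 47.9% against 63.1%, and Veh/Sham in 7.67% against 9.77%.

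For Iso against Veh/Sham the median log2 ratio was 0.59 (95% order-statistic interval over regions 0.57 to 0.62), which is 0.29 above the median of all regions. Of the 2215 regions, 1127 (50.9%) were at least 1.5-fold higher in Iso, where 31.8% of all regions were, and 102 (4.60%) were lower, against 7.99%. With that median subtracted, 706 (31.9%) were higher and 212 (9.57%) lower, against 17.8% and 16.1%. The distal gene body regions thus held a larger share of Iso-higher regions under either scaling.

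For TAC against Veh/Sham the median was 0.64 (0.59 to 0.66), only 0.05 above the median of all regions. At least 1.5-fold higher in TAC were 1162 regions (52.5%), a share near the 50.2% of all regions, and 96 (4.33%) were lower, against 4.18%. After subtraction of the overall median the counts were 480 higher (21.7%, against 18.4%) and 421 lower (19.0%, against 17.0%).

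Between the hypertrophy libraries, TAC against Iso gave a median of 0.04 (0.01 to 0.08), which is 0.25 below the median of all regions. In 445 regions (20.1%) TAC was at least 1.5-fold higher, against 31.4% of all regions, and in 393 (17.7%) it was lower, against 8.85%. After the same subtraction, 239 were higher (10.8%, against 17.0%) and 697 lower (31.5%, against 17.4%).

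**Figure D1:**
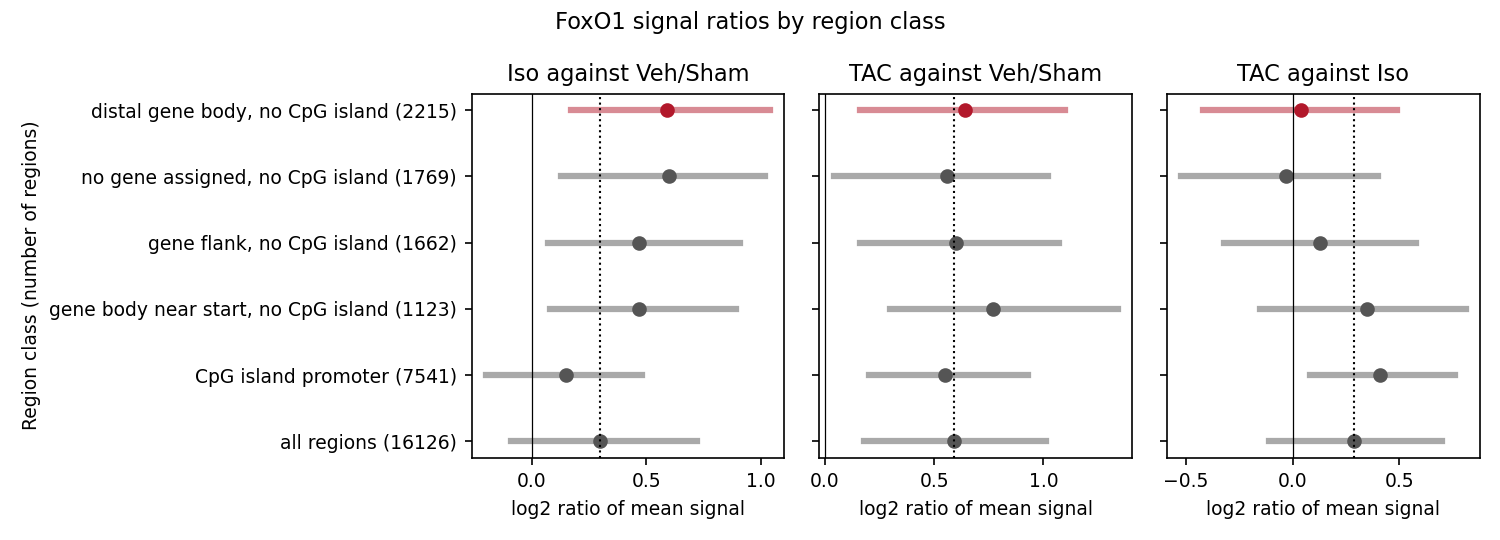
Log2 ratio of mean signal for each pair of libraries (x axis) in 5 classes of regions and in all regions (y axis, number of regions in brackets). Points are medians, bars run from the first to the third quartile, the dotted line is the median of all regions, and the distal gene body regions, in red, sit at 0.59, 0.64 and 0.04.

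Regions without a CpG island and without an assigned gene gave nearly the same medians as the distal gene body regions: 0.60 (Iso against Veh/Sham), 0.56 (TAC against Veh/Sham) and -0.03 (TAC against Iso) (1769 regions). The Iso pattern was therefore not particular to gene bodies. Regions in genes from 1000 to 10000 bp from a start, also without a CpG island, had 0.47, 0.77 and 0.35 (1123 regions), and regions flanking genes had 0.47, 0.60 and 0.13 (1662 regions). CpG island promoters had 0.15, 0.55 and 0.41 (7541 regions). Along the genes, the Iso against Veh/Sham median of the distal regions was 0.56 from 10000 to 20000 bp, 0.59 to 50000 bp, 0.66 to 100000 bp, 0.62 to 200000 bp and 0.51 beyond. The median of TAC against Iso over the same bins was 0.12, 0.08, -0.01, -0.09 and 0.02.

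Values just on either side of the distance limit are given as a description. Just inside lay regions of 4933406C10Rik at 10028 bp (mean signals of 9.85 (Veh/Sham), 15.1 (Iso) and 12.4 (TAC)), Rarg, a retinoic acid receptor, at 10034 bp (4, 5.50 and 8.17) and Gpsm1, a modulator of G protein signalling, at 10038 bp (2.12, 9.36 and 10.6). Just outside lay regions of Airn at 9923 bp (10.7, 22.4 and 20.1) and 4632411P08Rik at 9914 bp (9, 11.8 and 12.0). Raising the limit to 20000 bp left 1737 regions with medians of 0.60, 0.61 and 0.02.

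The contrast with promoters also held inside single genes. In 561 genes with a distal gene body region and a CpG island promoter region, the distal log2 ratio of Iso against Veh/Sham had a median of 0.64 and the promoter ratio one of 0.10. The distal value was the higher in 448 genes (79.9%, 95% Wilson interval 76.3 to 83.0), by a median of 0.57 (0.51 to 0.68). For TAC against Veh/Sham the distal and promoter medians were both 0.61, the median difference was 0.02 (-0.05 to 0.09), and the distal value was the higher in 286 genes (51.0%). For TAC against Iso the distal value was the higher in 105 genes (18.7%), with medians of -0.04 at distal regions and 0.51 at promoters. Genes that share a region are counted separately, so these intervals are somewhat too narrow.

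**Figure D2:**
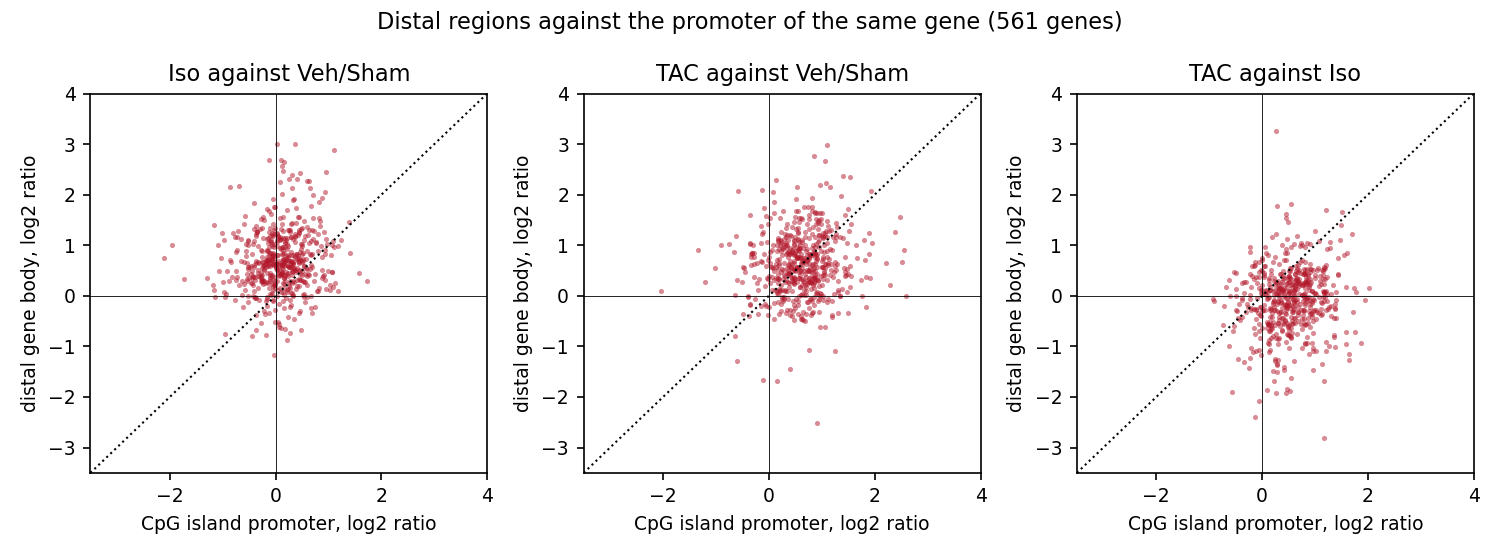
Each point is 1 of 561 genes, with the median log2 ratio of its CpG island promoter regions on the x axis and that of its distal gene body regions on the y axis. Points lie mainly above the dotted line of equal values for Iso against Veh/Sham (448 of 561), on both sides of it for TAC against Veh/Sham (286), and mainly below it for TAC against Iso (105 above).

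The authors called 789 of the distal gene body regions in Veh/Sham (35.6%, where 49.1% of all regions were called), 858 in Iso (38.7%, against 36.0%) and 711 in TAC (32.1%, against 45.0%). All 3 libraries shared 300 (13.5%, against 23.5% of the other regions), and 787 (35.5%, against 29.7%) were called in none of them. The merged table also covers libraries not used here. Calls in Iso alone made up 293 regions (13.2%), against 4.92% of the other regions, calls in Veh/Sham alone 261 (11.8%, against 13.7%), and calls in TAC alone 244 (11%, against 11.5%). Calls were not made at 1 signal level. Where the mean signal of distal gene body regions was at least 12 and under 16, the authors' calls covered 94.4% of them in Veh/Sham but 55.4% in Iso and 35.6% in TAC. Over all regions in this range of signal the shares were 97.1%, 57.6% and 41.6%, so the uneven calling was general.

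**Figure D3:**
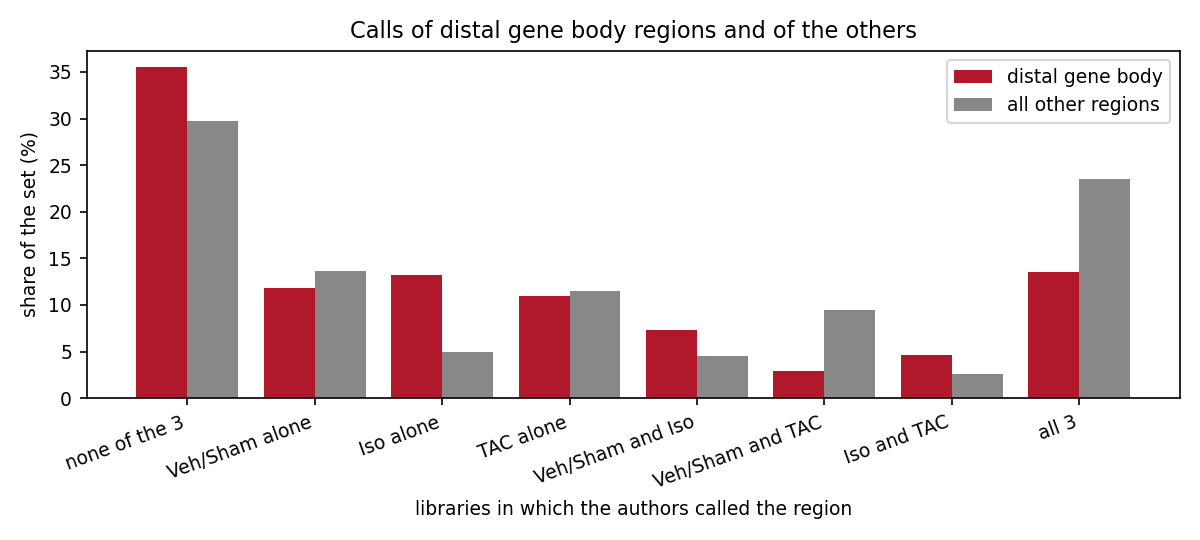
Share of distal gene body regions (red, 2215 regions) and of all other regions (grey) by the libraries in which the authors called them, in percent of each set. Calls in Iso alone made up 13.2% of the red set and 4.92% of the grey set, and calls in all 3 libraries 13.5% and 23.5%.

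Medians were also taken by call and by signal level. In the 787 regions called in none of the 3 libraries the medians were 0.60 (Iso against Veh/Sham), 0.71 (TAC against Veh/Sham) and 0.11 (TAC against Iso), where other regions called in none had 0.35, 0.69 and 0.34. In the 300 called in all 3 they were 0.52, 0.55 and 0.07, against 0.29, 0.52 and 0.22. Over 4 equal groups of all regions by mean signal, the Iso against Veh/Sham medians of distal gene body regions were 0.48, 0.62, 0.67 and 0.62 from lowest to highest, and those of the other regions 0.13, 0.24, 0.31 and 0.29. Regions called in none had a median peak depth of 7 fragments (Veh/Sham), 11 (Iso) and 12 (TAC), and a median length of 268 bp. Those called in all 3 had 21, 30 and 27 fragments and 675 bp. By chromosome, the autosomal Iso against Veh/Sham medians ran from 0.46 on chromosome 4 to 0.75 on chromosome 3, and the 6 regions on the X chromosome had 0.06.

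In the deposited values, the strongest distal gene body regions of the normal heart mostly kept a like level in all 3 libraries. The exceptions were 2610035D17Rik and Tmeff2. The highest Veh/Sham mean signal lay in Bcat2, the mitochondrial branched-chain aminotransferase (chr7:45588824-45589509, 19013 bp from the start), with 29.2 (Veh/Sham), 34.0 (Iso) and 32.2 (TAC). Its peak depths were 63, 69 and 58 fragments, and the Iso to Veh/Sham ratio of these was 1.10 (0.767 to 1.57). Next came a region shared by Hivep2, a zinc finger transcription factor, and the predicted gene Gm20114, with 28.6, 28.6 and 35.0. The region in 2610035D17Rik had 26.8, 16.4 and 22.7, so Iso was the lowest, but its peak ratio of Iso to Veh/Sham, 0.730, had an interval of 0.427 to 1.23. Both the gene for the IGF1 receptor and Foxo3 followed and are described with insulin signalling below. Rbpms, an RNA-binding protein, had 23.9, 26.3 and 24.2, Tmeff2, a transmembrane protein, had 23.9, 30.9 and 16.6, C030039L03Rik had 22.7, 28.2 and 22.3, Zbtb16 had 22.0, 19.7 and 22.6, and Ppp1r13b, which codes for a p53-binding protein, had 21.6, 23.2 and 24.9. The 10 regions were called in all 3 libraries. Relative to the median of all regions, their TAC against Veh/Sham log2 ratios ran from -0.31 in Hivep2 to -1.09 in Tmeff2. The value was -0.76 in Foxo3 and -0.61 in C030039L03Rik. The choice of these regions by Veh/Sham signal favours low ratios against Veh/Sham.

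The highest Iso and TAC signals, chosen after their values were seen, lay elsewhere. The highest Iso signal was in Nrp1, a coreceptor for VEGF and semaphorins on endothelial cells and neurons (chr8:128387098-128387634, 28293 bp from the start), with 20.5 (Veh/Sham), 42.8 (Iso) and 24.9 (TAC). Only Iso stood out there: the peak depths were 39, 68 and 47, and the Iso to Veh/Sham ratio was 1.74 (1.16 to 2.66). The Nrp1 region was picked for its Iso signal, so this interval is no test. The highest TAC signal was in Il16, a cytokine gene (chr7:83655147-83655887, at the start window printed above), with 21.2, 36.8 and 45.6. Here both hypertrophy libraries were high, with peak depths of 44, 88 and 84. Rhobtb1, an atypical GTPase, had 14.6, 34.1 and 23.8, and Creb3l2, a transcription factor tethered to the endoplasmic reticulum, had 12.1, 33.4 and 17.0. Ralgds, an exchange factor for Ral GTPases, had 15.0, 27.2 and 35.0, and Tcf4, a basic helix-loop-helix transcription factor, had 13.9, 25.9 and 32.8.

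**Figure D4:**
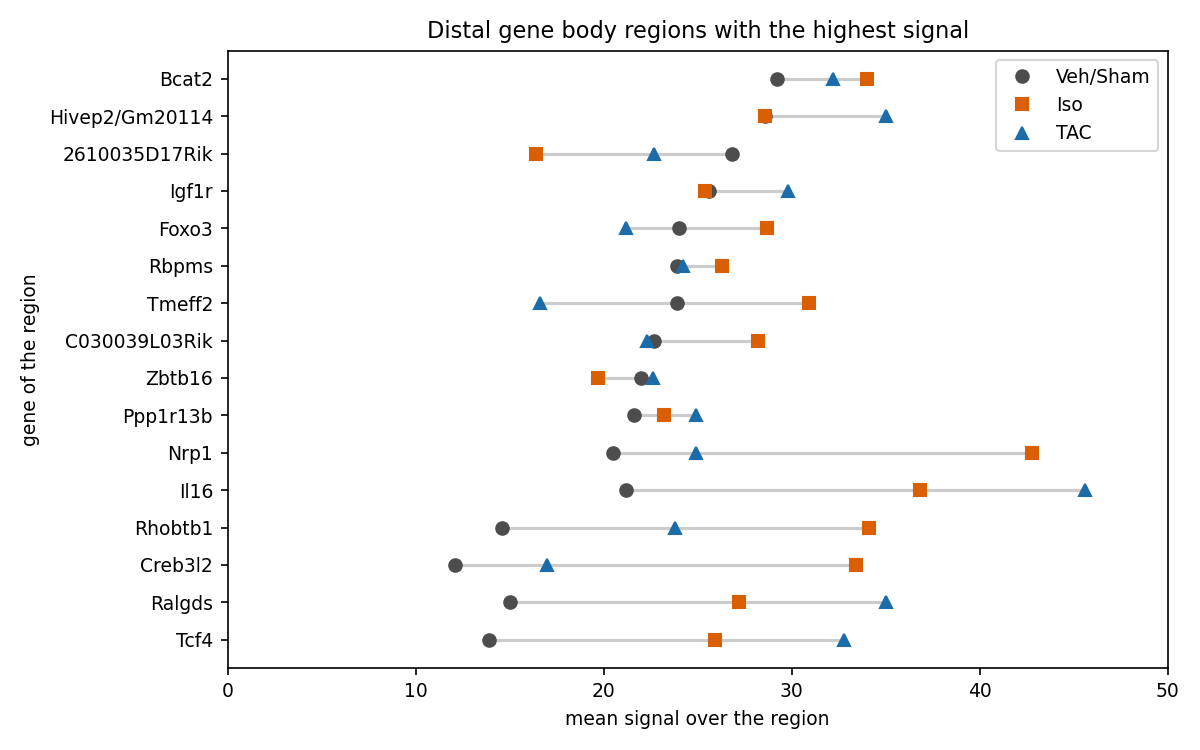
Mean signal (x axis) in the 3 libraries for the 10 distal gene body regions with the highest Veh/Sham signal and the further regions among the 5 highest in Iso or TAC, named by gene (y axis). Each marker is 1 library, the first 9 regions run from 29.2 to 22.0 in Veh/Sham, and Nrp1 stands out in Iso (42.8) and Il16 in TAC (45.6).

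At the other end of the range were regions whose deposited values were nearly the same in all 3 libraries. Among those called in all 3, the smallest spread was in Tanc1, a postsynaptic scaffold gene, 226912 bp from the start, with 18.4 (Veh/Sham), 19.1 (Iso) and 19.4 (TAC). Ptprr, a tyrosine phosphatase that acts on MAP kinases, had 15.3, 16.4 and 15.2.

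Large ratios were seen where Veh/Sham was near empty. Among regions at or above the members' median signal, Iso against Veh/Sham was highest in Bmpr2, the type II BMP receptor (chr1:59797947-59798173), with mean signals of 1.71 (Veh/Sham), 25.9 (Iso) and 8.57 (TAC). Peak depths were 2, 30 and 10 fragments, so the ratio of 15.0 had an interval of 3.81 to 129.5. Stk3, a kinase of the Hippo pathway, had 2.14, 18.7 and 12.1, Stk10, a serine/threonine kinase, 2.62, 21.0 and 24.0, Nav3, a microtubule-associated protein, 2.67, 20.8 and 9.22, Phlpp1, a phosphatase of Akt, 2.25, 18.1 and 14.6, and Sept9, a septin, 3.71, 22.0 and 15.0. All 6 were called in Iso and none in Veh/Sham. These regions were picked for their ratios, so an interval that leaves out 1 is no test of them. Near empty in Veh/Sham, they reached the median signal only through the libraries where they were high.

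Among regions at or above the members' median signal, the lowest Iso against Veh/Sham ratios were smaller in size. The limit is set on the mean of the 3 libraries, so it tends to leave out regions that fall from a modest Veh/Sham value. The Ldb3 region described below was left out in this way and had a lower ratio than those named here. Bcl2, which restrains apoptosis, had 14.6, 5.88 and 13.4 in a region 84637 bp from the start (chr1:106629529-106629778), with an Iso to Veh/Sham peak ratio of 0.412 (0.144 to 1.04). TAC was close to Veh/Sham there. Ulk4, a kinase-like protein, had 11.8, 6.05 and 13.7, and Nxn, a thioredoxin-like protein, had 12.9, 6.85 and 12.2. Triobp, an actin-binding protein, had 16.1, 8.57 and 8.57, and was thus lower in both hypertrophy libraries. Rhbdf2, an inactive rhomboid protein, had 13.2, 7.11 and 12.7, and Rnf144b, an E3 ubiquitin ligase, had 13.4, 7.56 and 13.0. The peak ratio of each of the 6 had an interval that included 1.

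Among regions at or above the members' median signal, TAC against Veh/Sham was highest in Plxnd1, a semaphorin receptor of endothelial cells (chr6:115974044-115974261). Its mean signals were 1.57 (Veh/Sham), 7.00 (Iso) and 24.0 (TAC). Peak depths of 2, 8 and 26 gave a TAC to Veh/Sham ratio of 13.0 (3.25 to 113.0). The Plxnd1 region was picked for its ratio and reached the median signal through its TAC value, so this interval is no test. Dlgap1, a synaptic scaffold gene, had 2.50, 7.89 and 22.0. Pparg, the nuclear receptor of fat cell differentiation, had 2.75, 8.67 and 22.3 in a region 101942 bp from the start. Pxn, which codes for the focal adhesion protein paxillin, had 2.71, 13.1 and 20.4. The Stk10 region above, with 24.0 in TAC, was also in this set, and so was a second region of Nav3, with 2.67, 9 and 19.8.

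Under the same signal limit, the lowest TAC against Veh/Sham ratios were in Htra1 and Abca1. Htra1, a secreted serine protease (chr7:130959943-130960216), had 15.2 (Veh/Sham), 22.2 (Iso) and 5.62 (TAC). Abca1, the cholesterol exporter (chr4:53108220-53108424), had 12.6, 20.4 and 4.57. In both, TAC alone was low. The TAC to Veh/Sham peak ratio was 0.350 (0.125 to 0.862) in Htra1 and 0.5 (0.185 to 1.24) in Abca1. Both were picked for their ratios, so these intervals are no test. Syn3 had 14.4, 11.5 and 5.46, and Oxr1, which protects against oxidative damage, had 10.3, 26.3 and 4. Below the signal limit ratios went lower, as in Cep85l, whose distal median log2 ratio of TAC against Veh/Sham was -2.51.

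Between TAC and Iso, Cyth1, an exchange factor for Arf GTPases, had the highest ratio among regions at or above the members' median signal. Its mean signals were 6.12 (Veh/Sham), 4.50 (Iso) and 21.2 (TAC). Ift122, a ciliary transport protein, had 5.71, 5.43 and 22.9, Sp2, a zinc finger transcription factor, 8.33, 4.83 and 19.5, and Pxdn, a peroxidase of the basement membrane, 5.86, 6.00 and 22.7. TAC was the highest library in each of these, and in Sp2 Iso was also below Veh/Sham (log2 ratio -0.68). A second Stk10 region had 6.00, 5.43 and 20.6 and a region of Itpkb 6.29, 6.57 and 23.6. At the low end, Oxr1 was followed by Tns3, a tensin, with 5.29, 24.3 and 3.80, Prkcq, a protein kinase C, with 5.50, 23.3 and 4.50, and Vwa8, a mitochondrial protein, with 8, 28.5 and 7.00, beside Abca1 and Htra1. In Tns3, Prkcq and Vwa8, Iso alone was high. The TAC to Iso peak ratio in Oxr1 was 0.167 (0.0505 to 0.434). Oxr1 was picked for its ratio, so this interval is no test. Below the signal limit ratios went lower, as in Cep85l, whose distal median log2 ratio of TAC against Iso was -2.82.

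Neighbouring regions of a gene did not always share their highest library. The Nav3 regions lie next to each other on chromosome 10, and the one 12500 bp from the start had 20.8 in Iso and 9.22 in TAC while the one 13949 bp from it had 9 and 19.8. Stk10 had 1 region with Iso and TAC both high and another, 19183 bp from the start, high in TAC alone. Plxnd1 had a region 23624 bp from the start with 4.88, 21.1 and 14.0, so Iso was highest there, beside the TAC-high region above. Over 553 neighbouring pairs with a gap of 5000 bp or less, the Spearman correlation of the log2 ratios was 0.12 (Iso against Veh/Sham), 0.11 (TAC against Veh/Sham) and 0.07 (TAC against Iso), which in counts this sparse is no finding. In 46 of these pairs both regions were at least 1.5-fold higher in TAC than in Iso, in 8 both were lower, and in 17 they went opposite ways. Of 1148 successive pairs more than 50000 bp apart, 31 were both higher, 69 both lower and 74 opposite.

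Distal regions were unevenly spread over genes. Of the 1107 host genes, 642 had 1 region, 368 had 2 to 4, 97 had 5 or more and 15 had 10 or more, and the 97 held 670 of the 2215 regions. A single region was assigned to 22 host genes, the nested protocadherin genes of chromosome 18. Host genes were long, with a median of 101.1 kb against 17.1 kb for protein-coding genes of RefSeq, a length that the distance rule itself favours. Among the 97 genes the median log2 ratio was above 0 in 95 for Iso against Veh/Sham, in 96 for TAC against Veh/Sham and in 72 for TAC against Iso. The medians of all regions were themselves above 0, at 0.30, 0.59 and 0.29, so these counts are no trait of the genes. The gene median was at least 1.5-fold higher in 36, 64 and 13 genes and at least 1.5-fold lower in 0.

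Zbtb16, a zinc finger repressor also known as PLZF, had the most regions, 21 over 52559 to 161102 bp from its start on chromosome 9. Their median signal was 5.22 (Veh/Sham), 7.67 (Iso) and 8.64 (TAC), and 17 were called in none of the 3 libraries. Strong ones had like values in Veh/Sham and Iso: the region at chr9:48723032-48724477 had peak depths of 81, 71 and 62 fragments, and that at 95739 bp from the start had mean signals of 15.2, 15.5 and 25. Among the 21, 9 were at least 1.5-fold higher and 2 lower in Iso than in Veh/Sham, and 14 were higher and 0 lower in TAC. Of distal gene body regions, 50.9% (Iso) and 52.5% (TAC) were higher and 4.60% and 4.33% lower. Of all regions, 31.8% and 50.2% were higher and 7.99% and 4.18% lower. Called in none of the 3 libraries were 35.5% of distal gene body regions and 29.7% of the other regions.

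Itpkb, which phosphorylates inositol trisphosphate and so shapes calcium signalling, had 17 regions on chromosome 1 with median signals of 7.38 (Veh/Sham), 8.31 (Iso) and 15.0 (TAC). At least 1.5-fold higher in TAC than in Veh/Sham were 15 of the 17 and 0 were lower, where 52.5% of distal gene body regions and 50.2% of all regions were higher. In Iso 6 were higher than in Veh/Sham, where 50.9% of distal gene body regions and 31.8% of all regions were. In TAC 9 were higher than in Iso, where the shares were 20.1% and 31.4%. The authors' calls numbered 5 (Veh/Sham), 3 (Iso) and 11 (TAC). They covered 35.6%, 38.7% and 32.1% of distal gene body regions and 49.1%, 36.0% and 45.0% of all regions. The strongest TAC value, 23.7, was 34895 bp from the start, where Veh/Sham had 7.44 and Iso 12.9.

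Nfic, a nuclear factor I transcription factor, packed 9 regions into the stretch from 11540 to 19604 bp from the nearest start. Their median was 9.62 (Veh/Sham), 10.7 (Iso) and 20.4 (TAC), and TAC was the highest library in each of the 9. TAC was the highest library in 47.9% of distal gene body regions and 63.1% of all regions. The longest, 2348 bp, had 13.8, 17.2 and 24.1. Nfic was singled out after its values were seen, as were Hdac7, a class IIa histone deacetylase of vascular cells, with 5 regions and medians of 3.12, 7.75 and 11.8, and Zmiz1, a transcriptional coactivator, with 5 and medians of 3.57, 6.86 and 11.1. Their median log2 ratios of TAC against Iso were 0.86 in Nfic, 0.91 in Hdac7 and 0.54 in Zmiz1. The 2215 regions had 0.04 and all regions had 0.29. The lowest among the 97 genes was -0.50 in Rbms1, an RNA-binding protein, with medians of 8.17, 12.4 and 8.21 over 5 regions.

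Tns1, a focal adhesion tensin, had 19 regions with medians of 7.54, 10.6 and 12.2. Its region 95497 bp from the start had 2.38 (Veh/Sham), 7.94 (Iso) and 20 (TAC), while the next ones, 95962 and 97338 bp away, had 6.09, 8.09 and 8.36 and 9.29, 13.9 and 14.3. Tcf4 had 13 with 7.75, 10.6 and 12.7. Hspg2, the basement membrane proteoglycan perlecan, and Rbpms had 12 each, with 10.8, 9.34 and 14.0 in Hspg2 and 8.38, 7.60 and 10 in Rbpms, so neither had a higher median in Iso than in Veh/Sham. The 11 regions of Pde4b lay in clusters from 251255 to 262647 bp and from 314835 to 334115 bp from the nearest listed start, and their medians were 8.55, 7.75 and 16.4. Sgms1, a sphingomyelin synthase, had 11 with 8.42, 10.4 and 17.9, and Syn3 and 2010111I01Rik had 11 each.

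**Figure D5:**
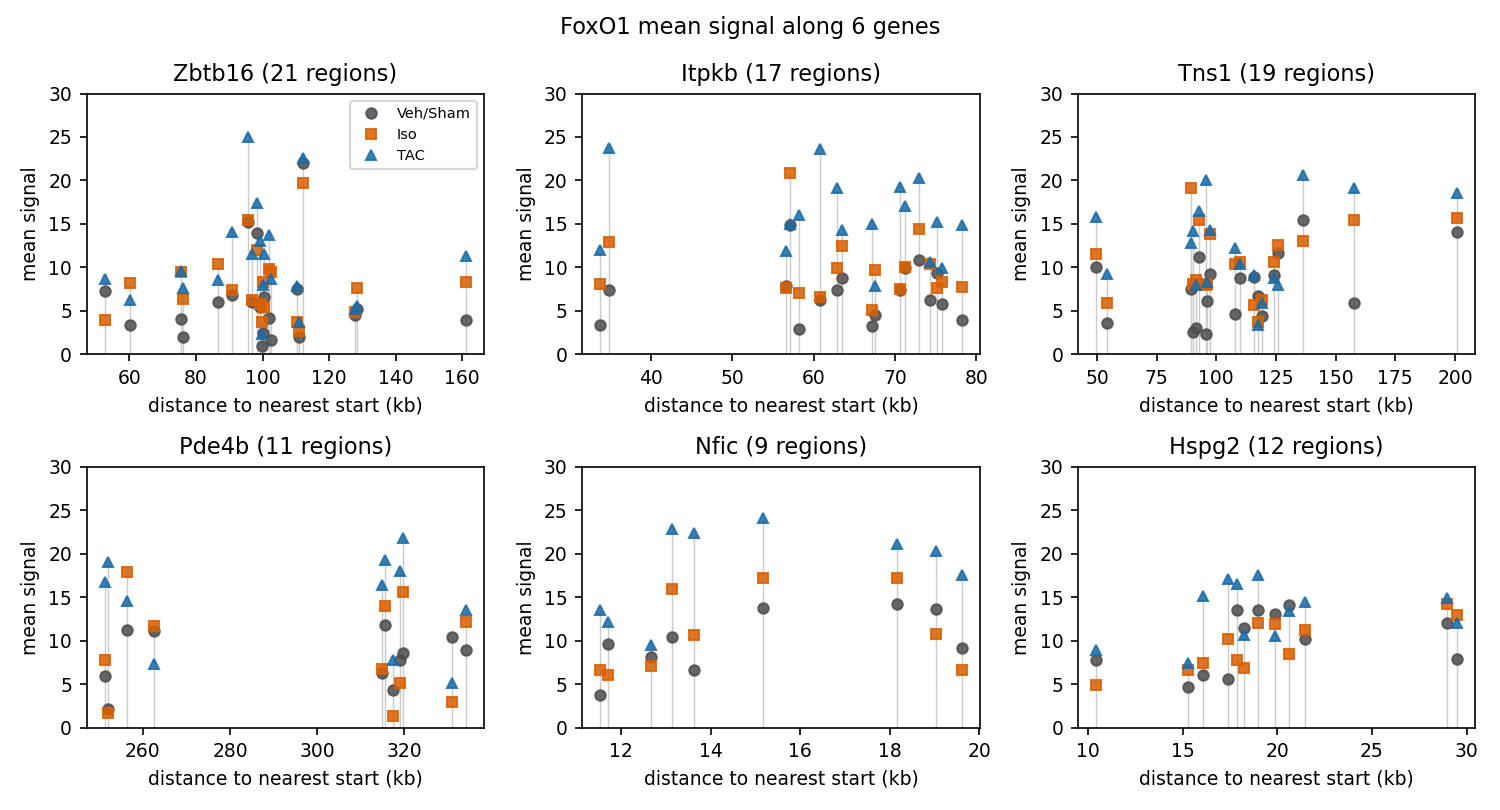
Mean signal (y axis) of each distal gene body region against its distance to the nearest assigned start in kb (x axis) in 6 genes, with 1 marker for each library. TAC (blue) is the highest library in all 9 regions of Nfic, and the Zbtb16 region with the highest Veh/Sham signal, 112191 bp from the start, has 22.0, 19.7 and 22.6.

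The gene lists that follow were chosen with results of these data known. Their counts are read against shares of distal gene body regions and of all regions. At least 1.5-fold higher in Iso than in Veh/Sham were 50.9% of distal gene body regions and 31.8% of all regions. In TAC these shares were 52.5% and 50.2%. At least 1.5-fold lower were 4.60% and 7.99% in Iso, and 4.33% and 4.18% in TAC. Medians of the lists are read against 0.59, 0.64 and 0.04, where all regions had 0.30, 0.59 and 0.29. Genes of insulin and FoxO signalling had distal regions in 9 of 30 listed members, 32 regions in all, with median log2 ratios of 0.32 (Iso against Veh/Sham), 0.54 (TAC against Veh/Sham) and 0.15 (TAC against Iso). Of the 32, 10 were at least 1.5-fold higher and 1 lower in Iso than in Veh/Sham, and 15 higher and 3 lower in TAC. Foxo1, Foxo4, Irs1 and Irs2 had none. Among the receptors, Igf1r had a strong region 177131 bp from its start (chr7:68128550-68130227) with 25.6, 25.4 and 29.8, and a weak one with 6.86, 5.71 and 5.29. Insr, the insulin receptor, had a region at chr8:3215552-3215870 with 18 (Veh/Sham), 26.1 (Iso) and 11.3 (TAC). There TAC was lowest, with a TAC to Iso peak ratio of 0.394 (0.190 to 0.769). This region was also picked for its low TAC against Veh/Sham ratio, so its interval is no test. Another Insr region had 5.91, 6.00 and 5.46. Of the kinases, Pik3cb had 1.56, 12.4 and 12.2, and Mtor, the growth-promoting kinase, had 3.40, 11.2 and 3.40. Sgk1, a kinase that like Akt phosphorylates FoxO factors, had 13.2, 8.64 and 17.6 in its named region of 5. Foxo3, the FoxO1 paralogue, had a region 25287 bp from the start (chr10:42250998-42251913) with 24.0, 28.7 and 21.2 and peak depths of 67, 82 and 59, and a second one with 11, 6.17 and 8.67. The stronger regions of Igf1r and Foxo3 varied little between libraries.

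Of 38 listed FoxO target genes, 4 had distal regions (7 in all, of which 3 were at least 1.5-fold higher and 1 lower in Iso than in Veh/Sham, and 4 higher in TAC). Rcan1, an inhibitor of calcineurin that is induced in cardiac hypertrophy, had 9.42, 19.7 and 16.2 at the start window printed above. Both hypertrophy libraries were above Veh/Sham, but the Iso to Veh/Sham peak ratio of 1.92 had an interval of 0.947 to 4.09. Mxi1, a MYC antagonist, had 5.83, 6.17 and 16.3, and Tsc22d3, a glucocorticoid-induced gene, had 9.35, 8.87 and 12.8. Sesn1, a stress-induced regulator of mTOR, was the fourth gene.

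Cardiac transcription factors and coregulators had 14 regions in 9 of 37 genes, with a median Iso against Veh/Sham ratio of 0.87 and 9 regions at least 1.5-fold higher and 0 lower. The TAC against Veh/Sham median was 0.67, with 7 higher and 1 lower. Mef2c, needed for heart development, had 14.7, 21.3 and 14.5, and Foxp1, another forkhead factor, had 7.67, 22.0 and 9.89, both highest in Iso. Nfatc2, an effector of calcineurin, had 5.20, 6.20 and 15.9, highest in TAC. Foxk1, a forkhead factor of muscle precursors, had 18.7, 20.4 and 27.3. Nuclear receptors and energy regulators had 20 regions in 7 of 25 genes, with medians of 0.40 for Iso against Veh/Sham and 0.76 for TAC against Veh/Sham, 8 higher and 1 lower in Iso, and 13 higher and 1 lower in TAC. Rara, a retinoic acid receptor, had 15.0, 18.8 and 26.9, and Nr3c2, the mineralocorticoid receptor, 8.43, 19.1 and 13.6. A second Pparg region had 8.33, 11 and 18.

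Sarcomere and cytoskeleton genes had only 4 distal regions, in 3 of 32 genes. Ldb3, a Z-disc protein, had 12.2 (Veh/Sham), 3.00 (Iso) and 4.88 (TAC) at a region 22456 bp from the start. Its Iso to Veh/Sham peak ratio was 0.235 (0.0576 to 0.721). The Ldb3 region was picked for its ratio, so this interval is no test. Vcl, which codes for vinculin, had 11.1, 25.9 and 19.8, and Palld, an actin-bundling protein, 11.1, 8.64 and 5.73, so the members went different ways. Ion channel and calcium genes had 14 regions in 7 of 31 genes, with 7 higher and 0 lower in Iso than in Veh/Sham, and 6 higher and 1 lower in TAC. Camk2d, the main cardiac calmodulin-dependent kinase, had 4.62, 17.5 and 9.88, Stim1, the calcium sensor of the endoplasmic reticulum, had 5.22, 16.6 and 15.9, and Ank3, an ankyrin, had 13.5, 24.3 and 12.2. Of the inositol trisphosphate receptors, Itpr1 had medians of 6.00, 11.5 and 14.0 over 5 regions, and Itpr2 had 9.25, 9.67 and 6.38 over 3. The regions named for their extreme ratios had 16, 13.4 and 20.1 in Itpr1 and 11, 18.2 and 8.88 in Itpr2.

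Adrenergic, G protein and cAMP genes, the pathway that isoproterenol acts on, had 41 regions in 14 of 32 genes. Their median Iso against Veh/Sham ratio was 0.40, with 17 higher (41.5%) and 3 lower, where 50.9% of all distal gene body regions and 31.8% of all regions were higher. The median of TAC against Veh/Sham was 0.70, with 24 higher (58.5%) and 3 lower. Pde4b, a cAMP phosphodiesterase, had 8.55, 15.7 and 21.8 in its strongest region. Gnas, the stimulatory G protein subunit, had 5, 13.4 and 6.86, highest in Iso, and Gnai2, an inhibitory one, had 7.67, 5.33 and 16.8, highest in TAC. Prkce, a protein kinase C, had 7.00, 19.4 and 15.8, and its 5 regions gave the highest Iso against Veh/Sham median of the 97 genes, 1.35. Rgs3, which shortens G protein signals, had 13.4, 10.3 and 25.4, and Pde10a had 10.6, 10.6 and 8.56. MAP kinase genes had 5 regions in 4 of 27 genes, with 1 higher in Iso and 1 in TAC than in Veh/Sham, both in Map3k3 (6.00, 16.5 and 14.0). Map3k5, a stress-activated kinase, had 14.9, 19.9 and 14.6, Map4k4 11.2, 8.10 and 8.70, and Spred2, an inhibitor of the cascade, 16.8, 17.4 and 21.4.

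BMP and TGF-beta genes had 22 regions in 9 of 29 genes, with 14 higher and 2 lower in Iso and 14 higher and 0 lower in TAC, and medians of 0.77 and 0.93. Beside Bmpr2, the ligand gene Bmp6 had 3.57, 14.7 and 3.29, high in Iso alone, and the endothelial receptor gene Acvrl1 had 4.62, 8 and 15.0. The coreceptor gene Tgfbr3 had 10.8, 18.2 and 21.5. Among the inhibitors, Smad6 had 11.2, 11.7 and 7.94 and Ski 12.2, 16.3 and 23.8.

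Endothelial and vascular genes held the most regions of any list examined here, 74 in 15 of 32 genes, where 4.53% of all protein-coding genes held a distal region. The listed genes were longer, with a median of 46.1 kb against 17.1 kb. Their medians were 0.55, 0.65 and 0.20, near those of all distal gene body regions for the comparisons with Veh/Sham, with 32 higher and 3 lower in Iso and 42 higher and 1 lower in TAC. Erg had 10.8, 16.1 and 31.2 in a region 80705 bp from the start, and 10.9, 16.5 and 14.7 at the start window printed above. Tek, the angiopoietin receptor, had 4, 15.5 and 16, Mecom, a zinc finger regulator, had 12.9, 25.2 and 12.3, and Ptprm, an adhesion phosphatase, had 10.7, 9.27 and 13.2. Defining markers of endothelial cells carried a distal region in 5 of 8 genes (Pecam1, Kdr, Tek, Erg and Flt1). None of the marker genes of cardiomyocytes (8), fibroblasts (7), smooth muscle and pericytes (5), leukocytes (7), neurons (4) or liver (3) did. Regions of any kind were assigned to 8 of the 8 endothelial, 1 of the 8 cardiomyocyte, 2 of the 7 fibroblast and 4 of the 7 leukocyte markers, so the difference between marker lists was not particular to distal gene body regions. The part of cell composition in any difference was not tested.

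Extracellular matrix and fibroblast genes had 22 regions in 7 of 30 genes, with 12 higher and 2 lower in Iso, 10 higher and 2 lower in TAC, and medians of 0.75 and 0.48. The type IV collagen genes Col4a1 and Col4a2 lie side by side. The Col4a1 region with the highest signal had 7.62, 19.8 and 12.5, and the Col4a2 region picked for its low Iso ratio had 12.5, 8 and 16.9. Over all their distal regions both genes had higher medians in Iso and TAC than in Veh/Sham, with 5.76, 8.93 and 12.0 over the 4 of Col4a1 and 7.18, 11.2 and 15.2 over the 6 of Col4a2. Lamc1, a laminin, had 4.78, 18.6 and 11.2, Lama2, another laminin, 8.29, 9.53 and 5.31, Timp3, a protease inhibitor, 12.9, 23.6 and 18.8, and Adamts9, a matrix protease, 8.92, 20.1 and 7.00. None of 20 leukocyte genes had a distal region, and 1 of 16 neuronal genes did: Rbfox1, a splicing regulator that the heart also uses, had 2.56, 15.3 and 3.89 at a region 1270270 bp from its start.

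The 80 regions at a RefSeq start window had medians of 0.45 (Iso against Veh/Sham), 0.71 (TAC against Veh/Sham) and 0.31 (TAC against Iso), against 0.60, 0.62 and 0.02 for those away from windows. The shares of the 80 that the authors called were 46.2% (Veh/Sham), 42.5% (Iso) and 47.5% (TAC), beside 35.6%, 38.7% and 32.1% of all distal gene body regions and 49.1%, 36.0% and 45.0% of all regions. Of the 2127 regions, 1683 (79.1%) were more than 10000 bp from any RefSeq start and 139 (6.54%) within 1000 bp of one. Sbno2, whose start is printed above and which codes for a helicase-like protein of inflammation, had 11, 25.4 and 27.1. The Pde4b start region had 11.9, 14.0 and 19.3. The hairpins of Mir8100 and Mir6387 lay in a region of Adam19 (8.42, 13.5 and 14.0) and of Trib2 (5.67, 10.9 and 8.44).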

How the data were processed

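The series holds 3 FoxO1 ChIP-seq libraries and 1 input of mouse heart, each FoxO1 library from a pool of 3 hearts. The submitters' processing notes name BWA, SICER and mm10, with no role or version. The authors deposited 1 table of regions merged over libraries, with a mean signal (coverage) and a peak signal per library and a call written as 0 or 1, a score; the sources used here do not give the normalization. The deposited signal times the number of 32 bp bins was a whole number in 96.9% to 97.3% of regions. Genes, distances and CpG islands are the authors' annotation; exon or intron is not analysed here. The 6 value columns of 2 libraries that match no sample were not used.

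The members and gene lists were chosen with earlier results of these data known. Per region, log2 ratios of mean signal used a pseudocount of 1, which understates ratios of low signal, and a 1.5-fold rule of size. With 1 library per condition no p-value was computed. Peak depths summed over the distal gene body regions were 25956 (Veh/Sham), 39723 (Iso) and 38456 (TAC). Intervals were exact Clopper-Pearson (peak ratios), Wilson (shares) and order-statistic (medians), all at 95%; fragments carried no molecular identifiers and may be copies of one another, and neighbouring regions share fragments and libraries, so the intervals cover counting error only. Named were the 10 highest Veh/Sham regions, per pair the 6 highest and 6 lowest ratios at or above the median signal (1 region per gene, no predicted symbols), the 8 genes with most regions (Pde4b, Sgms1 and Syn3 tied with the eighth), per list the 2 highest signals and the extreme ratios, 3 regions on each side of the distance limit, the 3 with the lowest spread, and 7 FoxO and insulin genes; a few genes that this rule names are not reported here. Alternatives were peak depth, pseudocounts of 5 and 0.1, a low-signal filter, called regions, recentring, a 2-fold rule, a 20000 bp limit and regions wholly in genes. The comparison within genes, the strata, the regions outside genes, the cAMP response element and the printed sequences were added after seeing the data. RefSeq start windows of GRCm38.p6 were matched by position, of which none was at hand on chromosome 18 (88 regions); 98.6% of host genes matched a RefSeq symbol. A motif search over whole regions was not run here. Functions were tested on simulated data. The software was scipy 1.17.1, pandas 2.3.3, numpy 2.4.6 and matplotlib 3.10.9 in Python 3.11.15.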

Additional observations from a re-analysis of the deposited data

How the results depend on the processing

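No paired analysis was possible because each condition has 1 library and the labels carry no replicate numbers. The median log2 ratios kept their sign for Iso and TAC against Veh/Sham under each alternative run. For Iso against Veh/Sham the median was 0.43 with a pseudocount of 5, 0.66 with 0.1, 0.64 without the 25% of regions with the lowest signal, 0.29 relative to the median of all regions and 0.66 with 1 region per gene. For TAC against Veh/Sham it was 0.45 and 0.69 with these pseudocounts, 0.56 with peak depth, 0.53 in regions called in either library, 0.05 relative to the median, 0.71 in regions called in none of the 3 and 0.52 with 1 region per gene. For TAC against Iso it was 0.00 with peak depth, -0.04 in regions called in either library, -0.25 relative to the median, 0.11 in regions called in none, -0.01 above 10000 bp from any RefSeq start and -0.13 with 1 region per gene, so its sign and size depend on the setting.

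Counts moved by over 1.5 times as follows. Higher in Iso than Veh/Sham were 601 of the regions called in either library, 706 relative to the median and 597 by the 2-fold rule, and lower were 37 with a pseudocount of 5, 41 without low-signal regions, 212 relative to the median and 28 by the 2-fold rule. Higher in TAC than Veh/Sham were 543, 480 and 654 under the same first 3 settings, and lower 48, 46, 421 and 34 under the latter 4. Higher in TAC than Iso were 271 with a pseudocount of 5, 278 without low-signal regions, 236 of called regions, 239 relative to the median and 180 by the 2-fold rule, and lower were 261 with a pseudocount of 5, 697 relative to the median and 157 by the 2-fold rule. With a signal of at least 15.7, the median over called regions, also asked of a call, calls covered 3.12% of regions (Veh/Sham), 25.4% (Iso) and 23.6% (TAC). Subsets hold fewer regions, which lowers their counts by construction; for other moves the cause was not tested.

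Of 2664 values of single named regions under alternatives, 0 changed sign from a value past 1.5-fold, and 8 left their counting interval. The planned motif search in the central part of each region was not run. With median peak depths of 10 to 16 fragments, single regions could show only large ratios, and a spread between hearts or libraries could not be measured.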
